A study of Mus musculus with 12 samples.

Results

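Neurotrophins are secreted growth factors, and 7 genes for neurotrophins and their receptors were examined in hair cells of the newborn mouse cochlea: the ligand genes Bdnf, Ntf3 and Ntf5 and the receptor genes Ngfr, Ntrk2, Ntrk3 and Sort1. They were matched by GENCODE mouse gene name to the Ensembl identifiers in the count files and are 7 of 55416 annotated genes. Levels were read in 12 RNA-seq libraries of organ of Corti, labelled wild type, at postnatal day 0 (P0), 6 from inner hair cells (IHCs) and 6 from outer hair cells (OHCs). Every library came from a pool of cells sorted by fluorescence from several pups of both sexes, so none of the values belongs to a single animal. All pups came from a cross of R26-TdTomato males with females carrying Atoh1-GFP and the Insm1-GFP-Cre allele. IHCs were taken as cells with GFP alone and OHCs as cells with both GFP and TdTomato, the latter switched on by Cre from the Insm1 locus.

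IHCs pass sound information to the auditory nerve, and OHCs amplify sound. Spiral ganglion neurons reach both, and BDNF and NT-3, the products of Bdnf and Ntf3, are the neurotrophins that keep these neurons alive during development. Neurotrophins are made as longer proneurotrophins that are cut to the mature form. Mature BDNF and NT-4, the product of Ntf5, bind TrkB (Ntrk2), and NT-3 binds TrkC (Ntrk3). The uncut forms bind a complex of p75NTR (Ngfr) and sortilin (Sort1). Ngfr is also a known marker of pillar cells, supporting cells that stand beside the hair cells.

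The place where the 3 proneurotrophins are cut is shown here because the cut turns the uncut form into the mature form that Trk receptors bind. Each window is the coding strand, 5′ to 3′, of GRCm39 around the only match in the coding sequence to arginine, any residue, lysine or arginine, then arginine, the motif of furin-type proteases, whose 12 bases are in capitals.
Bdnf, chr2:109554108-109554155, plus strand: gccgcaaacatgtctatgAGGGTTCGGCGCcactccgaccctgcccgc
Ntf3, chr6:126079031-126079078, minus strand: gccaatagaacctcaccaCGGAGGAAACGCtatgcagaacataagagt
Ntf5, chr7:45065077-45065124, plus strand: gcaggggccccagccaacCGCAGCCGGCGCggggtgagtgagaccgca
All 3 windows lie in coding exons. The motif is followed by 119 codons in both Bdnf and Ntf3 and by 130 in Ntf5. The match is a description of the reference sequence, and no cutting was measured in these cells.

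The genes sit on 6 chromosomes of GRCm39. Bdnf spans chr2:109505045-109557475 (plus strand), Ntf3 chr6:126078375-126143873 (minus) and Ntf5 chr7:45063082-45066604 (plus). Among the receptors, Ngfr spans chr11:95459638-95478561 (minus), Ntrk2 chr13:58954176-59281784 (plus), Ntrk3 chr7:77825707-78387760 (minus) and Sort1 chr3:108191285-108268842 (plus). Ntf5 shares 37.1% of its exonic bases with Ruvbl2 on the other strand, Bdnf 13.5% with the non-coding gene Gm45346, Ntf3 12.3% with Gm67883 and Sort1 21.4% with Gm12522. By the study's methods, default settings applied where none was named, and by default HTSeq counts reads by strand, but the library protocol names no step that marks strand, in which case reads in these stretches cannot be told apart by gene.

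The 12 libraries held 29564827 to 44017309 counts on genes. Ribosomal RNA took 21.5 to 56.9% of the gene counts in IHC libraries and 23.4 to 36.4% in OHC libraries, with the highest share in IHC replicate 1. All 10 hair cell markers were detected, with sums of 5168 to 9978 CPM (counts scaled to a common library size). The cell type labels fitted most of their markers. All 4 IHC markers were IHC-enriched, and 3 of 4 OHC markers, Insm1, Bcl11b and Neurod6, were OHC-enriched, whereas Ikzf2 did not pass (adjusted p = 0.84, edgeR quasi-likelihood test). The Insm1 locus drove the Cre by which OHCs were sorted, so Insm1 is no independent check of the labels. IHC replicate 6 stood apart from the other IHC libraries by Emid1, a pillar cell marker, at 78.9 CPM. It also did so by Fgfr3, a marker of pillar and Deiters' cells, at 73.3 CPM, within the OHC range of 67.8 to 77.8 CPM. Other markers of these cells were mixed. Among IHC libraries, replicate 6 had the highest Cryab and Hes5, at 193 and 15.1 CPM, but the lowest Hey2, at 2.04 CPM. OHC replicate 3 stood apart by the highest sum of 6 endothelial markers, 169 CPM. Results that rest on these libraries are also given without them.

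At P0, the pools of both hair cell types held abundant Bdnf and Sort1 transcripts, less Ntf3, and next to no Ntf5. The receptor Ntrk3 was IHC-enriched, 33.2-fold on the fitted scale. Ngfr and Ntrk2 had higher means in IHCs as well, 7.21-fold and 8.02-fold by the fit, but did not pass the threshold. In all, 6 of the genes could be tested (Ntf5 did not pass the filter on low counts), and 1 of the 6, Ntrk3, passed an adjusted p of 0.05 in edgeR's quasi-likelihood test (Benjamini-Hochberg, over all 13269 genes tested). Across all genes, 6.26% passed that test, and 3.81% passed it as IHC-enriched. None of the 6 genes had IHC and OHC libraries that did not overlap, which 4.6% of all tested genes had. In pools of cells, fewer cells of a type and less RNA per cell cannot be told apart.

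**Figure D1:**
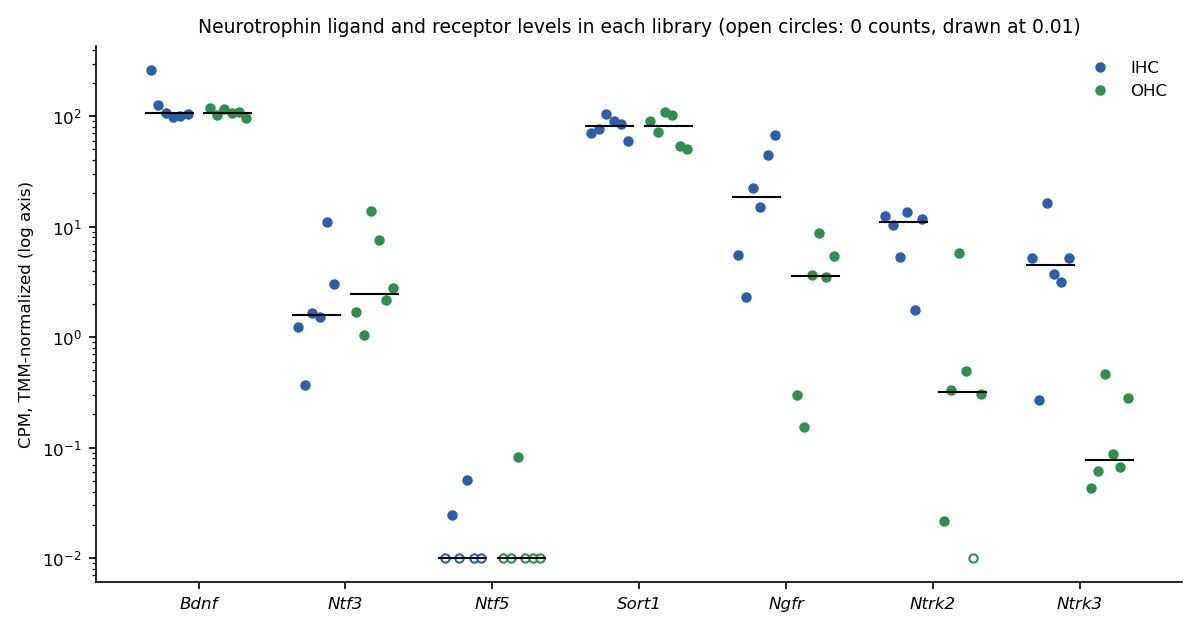
CPM after TMM normalization (log axis) of the 7 genes in each IHC library (blue) and each OHC library (green), in order of replicate number from left to right within a group; black lines are medians, and open circles are libraries with 0 counts drawn at 0.01. Bdnf and Sort1 lie between 50.4 and 263 CPM in all 12 libraries, while Ngfr, Ntrk2 and Ntrk3 spread widely and sit lower in most OHC libraries.

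Among the ligands, Bdnf was the most abundant. Its level was 263, 126, 107, 98.0, 100.4 and 105 CPM in IHC replicates 1 to 6 and 118, 102, 117, 107, 109 and 96.4 CPM in OHC replicates 1 to 6. The OHC libraries differed by at most 1.23-fold from each other, and 5 of the 6 IHC libraries fell within 98.0 to 126 CPM, with IHC replicate 1 far above. The mean was 133 ± 64.2 CPM in IHCs and 108 ± 8.47 CPM in OHCs (SD, n = 6 each). The difference did not pass the test, with a log2 fold change of OHC over IHC of -0.30 ± 0.25 (SE), a 95% interval of -0.82 to 0.23 and an adjusted p of 0.524 (edgeR quasi-likelihood test). Without IHC replicate 1 the log2 fold change was 0.0025, with an adjusted p of 0.996. The height of Bdnf in that library depended on the scaling. As CPM of all gene counts, without TMM factors, Bdnf stood at 127.5 in IHC replicate 1, 97.5 to 122 in the other IHC libraries and 97.9 to 145 in the OHC libraries. As CPM of the counts outside ribosomal RNA, it stood at 296, against 140 to 187 and 154 to 193.

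Ntf3, the gene of NT-3, was lower than Bdnf in every library. Its levels were 1.24, 0.366, 1.65, 1.54, 10.995 and 2.997 CPM in IHC replicates 1 to 6 and 1.703, 1.04, 13.8, 7.59, 2.17 and 2.79 CPM in OHC replicates 1 to 6. IHC replicate 5 and OHC replicate 3 stood highest in their groups, and the groups overlapped over nearly their whole range. Libraries of 1 cell type differed by up to 30.01-fold in IHCs and 13.4-fold in OHCs. The log2 fold change was 0.63 ± 0.91 (95% interval -1.28 to 2.54, adjusted p = 0.731, edgeR quasi-likelihood test), an interval that includes no difference as well as differences of more than 1 log2 unit in either direction. Without OHC replicate 3 it was -0.05 (adjusted p = 0.985).

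Ntf5, the gene of NT-4, had at most 2 counts in an IHC library and 3 in an OHC library, with 0 counts in 4 IHC and 5 OHC libraries. A count of 0 allows up to 3 counts, which is 0.0647 to 0.196 CPM in these libraries, and this limit covers counting error only. No fold change is given for Ntf5.

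Per kilobase of exon, Bdnf exceeded Ntf3 in each of the 12 libraries. The ratio of the geometric means was 15.3 to 1 in IHCs and 7.62 to 1 in OHCs. The log2 ratio of Ntf3 to Bdnf was -3.93 ± 1.85 in IHCs and -2.93 ± 1.36 in OHCs (SD, n = 6 each), and the difference of 1.004 was smaller than the spread between libraries (two-sided exact permutation test over 924 splits, p = 0.312, adjusted over 3 ratios p = 0.468).

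Sort1, which encodes sortilin, a sorting receptor that also binds proneurotrophins, was the steadiest of the receptor genes. It stood at 70.2, 77.1, 104, 89.6, 85.8 and 59.96 CPM in IHC replicates 1 to 6 and at 91.2, 72.2, 109.8, 102, 54.2 and 50.4 CPM in OHC replicates 1 to 6. The groups overlapped throughout. The means were 81.1 ± 15.5 CPM in IHCs and 79.9 ± 24.9 CPM in OHCs (SD, n = 6 each), and the log2 fold change was -0.02 ± 0.25 with a 95% interval of -0.55 to 0.51 (adjusted p = 0.974, edgeR quasi-likelihood test). That interval, which is not adjusted, stays within about 0.55 on the log2 scale in either direction.

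Ngfr, which encodes p75NTR, varied widely between libraries of 1 cell type. Its levels were 5.49, 2.296, 22.3, 15.1, 44.6 and 67.8 CPM in IHC replicates 1 to 6 and 0.302, 0.152, 3.66, 8.84, 3.503 and 5.41 CPM in OHC replicates 1 to 6. IHC replicates 3 to 6 exceeded all OHC libraries, and IHC replicates 1 and 2 lay within the OHC range. The means were 26.3 ± 25.3 CPM and 3.64 ± 3.27 CPM (SD, n = 6 each). The log2 fold change was -2.85 ± 0.89, with an unadjusted 95% interval of -4.70 to -1.0004 and an adjusted p of 0.0605 (edgeR quasi-likelihood test). DESeq2, which called 17.4% of the genes it tested, gave -2.85 with an adjusted p of 0.0107, and over 19 alternatives the adjusted p ran from 0.00519 to 0.176, with 6 under the threshold. Without IHC replicate 6, the library with the most Ngfr, the log2 fold change was -2.31 (adjusted p = 0.143, edgeR quasi-likelihood test).

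The mean log2 ratio of Ngfr to Sort1 per kilobase of exon was -1.13 ± 1.87 in IHCs and -4.17 ± 2.43 in OHCs (SD, n = 6 each). The difference, OHC minus IHC, was -3.04, which gave p = 0.0411 in the two-sided exact permutation test and did not pass after adjustment over the 3 ratios (adjusted p = 0.123). Ngfr exceeded Sort1 per kilobase only in IHC replicates 5 and 6, at log2 ratios of 0.30 and 1.43.

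Ntrk2, the TrkB gene, stood at 12.5, 10.3, 5.34, 13.7, 1.78 and 11.8 CPM in IHC replicates 1 to 6. In OHC replicates 1 to 6 it stood at 0.0216, 0.335, 5.73, 0.494, 0 and 0.304 CPM. Of the OHC libraries, 5 lay below every IHC library, and OHC replicate 3 lay within the IHC range. The means were 9.23 ± 4.66 CPM in IHCs and 1.15 ± 2.25 CPM in OHCs (SD, n = 6 each), with a log2 fold change of -3.004 ± 1.16, an unadjusted 95% interval of -5.43 to -0.58 and an adjusted p of 0.133 (edgeR quasi-likelihood test). The call depended on that library and on the model. Without OHC replicate 3 the log2 fold change was -5.32 with an adjusted p of 0.0106 (edgeR quasi-likelihood test), and with all libraries DESeq2 gave an adjusted p of 0.0337 and a replicate block in the edgeR fit gave -5.23 with 0.0217.

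Ntrk3, the TrkC gene, was IHC-enriched. Its levels were 5.23, 0.269, 16.4, 3.703, 3.12 and 5.26 CPM in IHC replicates 1 to 6 and 0.0431, 0.061, 0.461, 0.0872, 0.0667 and 0.281 CPM in OHC replicates 1 to 6. These levels rest on 11 to 627 counts per IHC library and on 2 to 17 counts per OHC library. All IHC libraries but replicate 2 exceeded the OHC libraries, and that replicate lay below OHC replicates 3 and 6. The means were 5.67 ± 5.57 CPM and 0.167 ± 0.169 CPM (SD, n = 6 each), and the log2 fold change was -5.05 ± 1.11 (95% interval -7.36 to -2.74, adjusted p = 0.00865, edgeR quasi-likelihood test). The call held in all 19 alternatives, with adjusted p between 9.56e-08 and 0.0256, and without IHC replicate 3, the library with the most Ntrk3, the log2 fold change was -4.38.

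**Figure D2:**
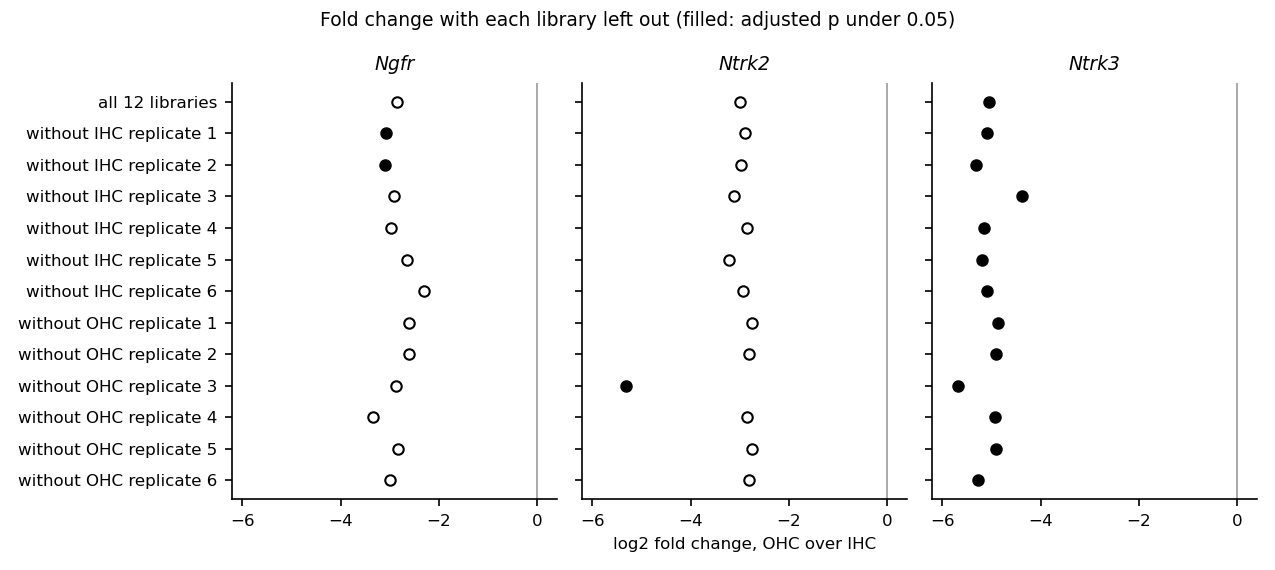
Log2 fold change of OHC over IHC (x axis) for Ngfr, Ntrk2 and Ntrk3 with all 12 libraries and with each library left out in turn; filled circles have an adjusted p under 0.05 in the edgeR quasi-likelihood test. Ntrk3 passed in all 12 reduced fits, Ngfr in 2 and Ntrk2 in 1, the fit without OHC replicate 3.

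The balance of the Trk receptors did not differ beyond the spread. The log2 ratio of Ntrk3 to Ntrk2 per kilobase of exon was -1.24 ± 2.38 in IHCs and -0.93 ± 2.22 in OHCs (SD, n = 6 each), with p = 0.812 in the two-sided exact permutation test, also 0.812 after adjustment over the 3 ratios. Ntrk2 exceeded Ntrk3 in 4 of 6 IHC libraries and 4 of 6 OHC libraries.

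**Figure D3:**
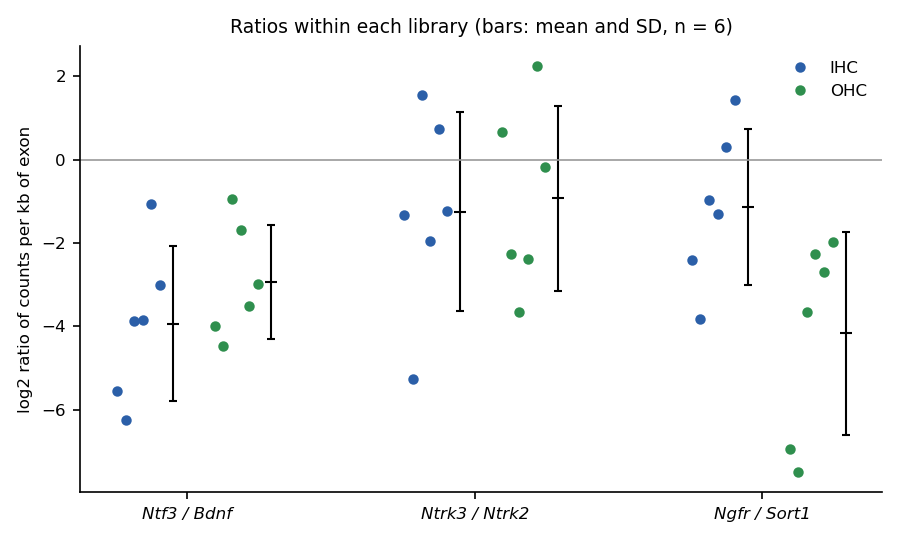
Log2 ratios of counts per kb of exon (y axis) of Ntf3 to Bdnf, Ntrk3 to Ntrk2 and Ngfr to Sort1 in each IHC (blue) and OHC (green) library, with the mean and SD of 6 libraries beside them. All Ntf3 to Bdnf ratios lie below 0, and the Ngfr to Sort1 ratios average -1.13 in IHCs and -4.17 in OHCs.

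Set against each other per kilobase of exon, the genes had the following order of mean level. In IHCs, Bdnf stood at 17.6 ± 8.46 CPM per kb, Sort1 at 9.88 ± 1.89, Ngfr at 7.61 ± 7.34, Ntf3 at 1.803 ± 2.27, Ntrk2 at 0.308 ± 0.156, Ntrk3 at 0.181 ± 0.178 and Ntf5 at 0.00407 ± 0.00685 (SD, n = 6). Among neighbours in that order, the ranges overlapped for Sort1 and Ngfr, Ngfr and Ntf3, Ntf3 and Ntrk2, Ntrk2 and Ntrk3, and Ntrk3 and Ntf5, whereas Bdnf lay above Sort1 in every library. In OHCs, Bdnf stood at 14.3 ± 1.12 CPM per kb, Sort1 at 9.74 ± 3.03, Ntf3 at 2.79 ± 2.87, Ngfr at 1.06 ± 0.947, Ntrk2 at 0.0383 ± 0.0752, Ntrk3 at 0.00532 ± 0.00539 and Ntf5 at 0.00443 ± 0.0108 (SD, n = 6). Here the ranges overlapped for every pair of neighbours, although within a library Bdnf exceeded Sort1 in 6 of 6. Among the 13269 tested genes, the mean level per kb over the 12 libraries put Bdnf at percentile 88.7 and Sort1 at 80.6. Ngfr stood at percentile 61.2, Ntf3 at 44.4, Ntrk2 at 2.39 and Ntrk3 at 0.528. Annotated exons of Ntrk2 and Ntrk3 cover 29922 and 31340 bases over all isoforms, which lowers their values per kb. With the length of the canonical transcript instead, the order of the means stayed as given in both cell types, and Ntrk2 stood at 1.02 and Ntrk3 at 0.288 CPM per kb in IHCs.

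The places of Ngfr and Ntf3 in this order were exchanged between the cell types. Ngfr exceeded Ntf3 per kilobase in 6 of 6 IHC libraries, by a log2 ratio of 1.03 to 3.503, and fell below it in 6 of 6 OHC libraries, at -3.64 to -0.04. The log2 ratios of the groups therefore did not overlap, and they did not overlap with canonical transcript lengths either, at 0.68 to 3.16 and -3.98 to -0.38. In OHC replicate 6 the genes were nearly level, at 1.57 CPM per kb for Ngfr and 1.60 for Ntf3. This pair was chosen after its values were seen, so no test is given. How many other pairs of genes separate in this way was not counted, so the lack of overlap is a description only. Within a cell type the levels of the same genes moved together. The deviations of their log2 CPM from the cell type mean had a Pearson correlation of 0.77 and a Spearman correlation of 0.85 over 12 libraries, the highest Pearson value among the 15 pairs of tested genes, and the points share their library's normalization.

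Other cochlear cells also express Ngfr, Ntrk2 and Ntrk3, so markers of those cells were summed in each library. Of 12 pillar and Deiters' cell markers, 10 were tested and 1, Sox2, was IHC-enriched. The summed level of the 12 was 269.5 to 488 CPM in IHC libraries and 324 to 582.5 CPM in OHC libraries. IHC replicate 6, with the most Ngfr, had the highest IHC sum, and IHC replicate 5, next in Ngfr, had 381 CPM. IHC replicate 2, with the least Ngfr, had 371 CPM. Among OHC libraries, replicate 5 had the highest sum and replicate 4 the most Ngfr. Of 9 markers of Kölliker's organ, the epithelium beside the IHCs, 6 were tested and 2, Tecta and Gjb2, were IHC-enriched, and their sum was 833 to 2202 CPM in IHC libraries and 159 to 735 CPM in OHC libraries. In the pillar and Deiters' list, Fgfr3 had a higher mean in OHCs (log2 fold change 2.12, adjusted p = 0.0722), as did Cryab (0.81, adjusted p = 0.0630, edgeR quasi-likelihood test), and neither passed. The sum over that list overlapped between the groups, and the sum over Kölliker's organ did not. Cryab had the highest mean of the pillar and Deiters' list, 139 CPM in IHCs and 244 CPM in OHCs. Of the other tested genes besides Fgfr3, Emid1, Hey2, Lfng, Sox2, Slc1a3 and Fabp7 had higher means in IHCs, and S100b and Hes5 in OHCs. The paper lists an Fgfr3 proximal element as more open in OHCs than IHCs, and in hair cells than supporting cells. The overlap is thus no measure of these cells in a pool. Tecta had the highest mean of the Kölliker's organ list in both groups, and 4 of the 6 tested genes did not pass. Of that list, Otoa had a higher mean in OHCs (log2 fold change 0.60, adjusted p = 0.661, edgeR quasi-likelihood test). Epyc, not tested, averaged 0.0327 CPM in IHCs and 2.94 CPM in OHCs.

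Glia and spiral ganglion neurons are known to carry neurotrophin receptors, and their markers other than Nefl had lower sums. Of 7 glial markers, 4 were tested and 0 passed in the edgeR quasi-likelihood test (1 at an unadjusted p under 0.05, and 0 with DESeq2 or edgeR's exact test). Their sum was 20.9 to 75.4 CPM in IHC libraries and 7.91 to 44.9 CPM in OHC libraries, while Foxd3 had at most 3 counts in any library. IHC replicate 3, with the most Ntrk3, had the highest glial sum and the most Sox10, at 62.2 CPM. Of 8 spiral ganglion neuron markers, Nefl was IHC-enriched, at 296 to 520 CPM against 69.5 to 149 CPM, and the sum of the other 7 was 1.29 to 18.1 CPM in IHC libraries and 1.52 to 11.6 CPM in OHC libraries. Prph had at most 2 counts in any library, and Neurod1 had at most 5 in IHC libraries and 0 in OHC libraries. IHC replicate 5, with the highest sum of those 7, had 3.12 CPM of Ntrk3, and Pou4f1 alone made up 17.3 CPM of that sum. IHC replicate 3, with the most Ntrk3, had the most Ntng1, at 9.74 CPM.

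Of 9 mesenchymal markers, 5 were tested and 0 passed in the edgeR quasi-likelihood test (2 at an unadjusted p under 0.05, and 1 each with DESeq2 and edgeR's exact test), and their sum was 33.9 to 58.1 CPM in IHC libraries and 7.22 to 21.9 CPM in OHC libraries. Of 6 endothelial markers, 5 were OHC-enriched, with a sum of 0.277 to 4.98 CPM in IHC libraries and 14.7 to 169 CPM in OHC libraries. OHC replicate 3, with the highest endothelial sum, was also the OHC library with the most Ntrk2, Ntrk3 and Ntf3. Its sums over glia and Kölliker's organ, 44.9 and 735 CPM, were the highest of the OHC libraries as well. Those over mesenchyme, pillar and Deiters' cells and spiral ganglion neurons were not. Macrophage markers summed to at most 19.6 CPM, with C1qa, Cx3cr1 and Aif1 at 0 counts throughout, and erythroid markers to at most 3.198 CPM. Among IHC libraries, replicate 5, with the most Ntf3, had the highest Kölliker's organ sum, 2202 CPM. Replicate 2, with the least Ntf3, had 1526 CPM. The part of all these cells in the ligand and receptor levels was not tested. Without IHC replicates 1 and 6 and OHC replicate 3 together, a setting chosen after the data were seen, the log2 fold change was -5.73 for Ntrk3 (adjusted p = 0.0212), -5.05 for Ntrk2 (adjusted p = 0.0311) and -2.55 for Ngfr (adjusted p = 0.176, edgeR quasi-likelihood test).

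**Figure D4:**
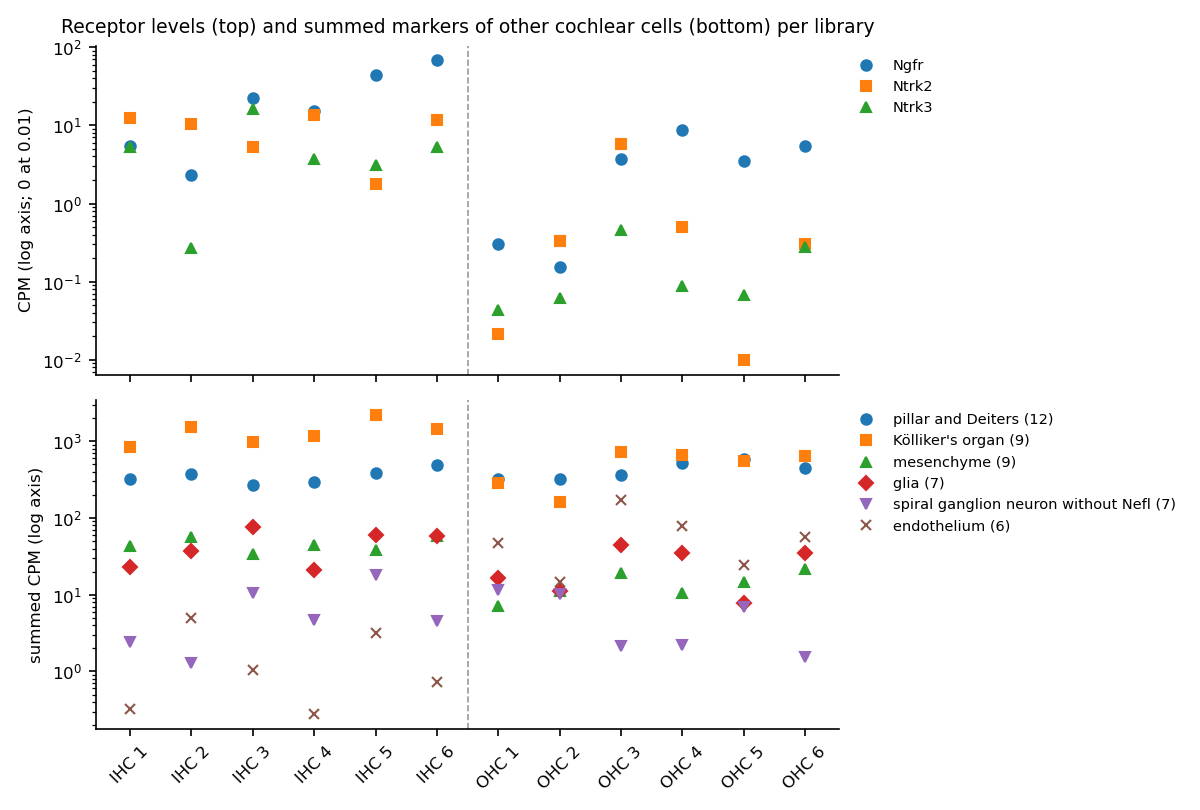
Top, CPM of Ngfr, Ntrk2 and Ntrk3 in each library (log axis, 0 drawn at 0.01). Bottom, summed CPM of marker lists of other cochlear cells in the same libraries (log axis, number of genes in parentheses), with the sum over Kölliker's organ above 833 CPM in each IHC library and at most 735 CPM in each OHC library.

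Genes that act with the neurotrophins were read in 7 lists of 75 genes, of which 57 were tested. Of the 57, 10 passed the edgeR quasi-likelihood test, 4 OHC-enriched and 6 IHC-enriched, against a background of 6.26% of all tested genes. The lists are short, and their counts and medians are descriptions. Over all genes tested, the median log2 fold change was -0.04.

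Sortilin belongs to the VPS10 receptors, and 1 of its 3 tested relatives passed, with 2 called by DESeq2. Sorcs1 was IHC-enriched, at 17.9 to 47.4 CPM in IHC libraries and 11.0 to 18.1 CPM in OHC libraries (log2 fold change -1.29 ± 0.37, adjusted p = 0.0434, edgeR quasi-likelihood test), with 1 OHC library within the IHC range. The call was lost in 12 of 19 alternatives. Sorl1, named after its values were seen, lay in the other direction, at 1.64 to 24.4 CPM in IHC libraries and 15.6 to 51.8 CPM in OHC libraries, but did not pass (log2 fold change 1.70 ± 0.53, 95% interval 0.58 to 2.81, adjusted p = 0.0632, edgeR quasi-likelihood test). The median of the 3 was -1.25.

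Proneurotrophin cutting and its regulators were represented by 7 tested genes of 12, of which 1 passed, with a median log2 fold change of -0.12. Pcsk1, a prohormone convertase of regulated secretory granules, was OHC-enriched. Its levels were 5.35 to 27.3 CPM in IHC libraries and 34.0 to 82.6 CPM in OHC libraries, without overlap (log2 fold change 1.61 ± 0.42, adjusted p = 0.0245, edgeR quasi-likelihood test), and the call was lost without OHC replicate 5 or without OHC replicate 6 (adjusted p = 0.0606 and 0.0667). The other tested genes did not pass, and Plg and Mmp7 had 0 counts in all libraries.

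Among partners of p75NTR, 2 of 11 tested genes passed, in opposite directions, and the list's median was -0.50. Lingo1, a coreceptor of p75NTR in signalling from myelin proteins, was OHC-enriched, at 0.368 to 12.8 CPM in IHC libraries and 10.1 to 77.4 CPM in OHC libraries (log2 fold change 2.80 ± 0.71, adjusted p = 0.0226, edgeR quasi-likelihood test), and the call was lost without OHC replicate 2, the library with the most Lingo1 (adjusted p = 0.0777). Rtn4rl1, a Nogo receptor family member, was IHC-enriched, at 6.82 to 138 CPM in IHC libraries and 0.756 to 4.85 CPM in OHC libraries, without overlap (log2 fold change -4.23 ± 0.75, adjusted p = 0.00151, edgeR quasi-likelihood test).

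All 23 genes on the list of Trk adaptors and signalling proteins were tested, with a median of -0.09, and 2 were IHC-enriched. Sos2, an exchange factor that activates Ras, stood at 55.6 to 155 CPM in IHC libraries and 40.1 to 61.3 CPM in OHC libraries (log2 fold change -1.23 ± 0.28, adjusted p = 0.0104, edgeR quasi-likelihood test). Sh2b1, an adaptor of receptor tyrosine kinases, stood at 15.4 to 88.4 CPM and 5.64 to 23.1 CPM (log2 fold change -1.66 ± 0.48, adjusted p = 0.0461, edgeR quasi-likelihood test), a call that was lost in 9 of 19 alternatives. The other 21 did not pass.

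Among GDNF family ligands and receptors, 4 of 9 were tested and 2 passed, with a median of 0.31. Gfra3, the artemin coreceptor, had 0 counts in all IHC libraries and 0.367 to 4.98 CPM in OHC libraries, at least 21.98-fold higher against a floor of 3 counts per library (adjusted p = 0.00135, edgeR quasi-likelihood test). Gfra1, the GDNF coreceptor, was IHC-enriched, at 8.53 to 71.7 CPM in IHC libraries and 3.81 to 18.2 CPM in OHC libraries (log2 fold change -2.05 ± 0.54, adjusted p = 0.0280, edgeR quasi-likelihood test), and lost the call in 8 of 19 alternatives. Ret, the signalling receptor that both coreceptors serve, did not pass the filter on low counts, with at most 1 count in an OHC library and 175 in an IHC library.

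Of 3 tested genes of the CNTF and LIF family, 0 passed in the edgeR quasi-likelihood test (0 at an unadjusted p under 0.05, and 0 with DESeq2 or edgeR's exact test), with a median of -0.28. Of 6 tested genes that, like Bdnf, are induced by activity in neurons, 2 passed, in opposite directions, with a list median of 0.37. Egr2 was OHC-enriched, at 0.392 to 6.85 CPM in IHC libraries and 6.97 to 32.2 CPM in OHC libraries, without overlap (log2 fold change 2.78 ± 0.70, adjusted p = 0.0206, edgeR quasi-likelihood test), and the call was lost without OHC replicate 2 and without the 3 libraries that stood apart (adjusted p = 0.0518 and 0.0673). Junb was called IHC-enriched (log2 fold change -4.47 ± 1.14, adjusted p = 0.0222), but IHC replicate 1 held 158 CPM and the other IHC libraries at most 7.81 CPM, and without that library the log2 fold change was -1.70 (adjusted p = 0.346, edgeR quasi-likelihood test).

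**Figure D5:**
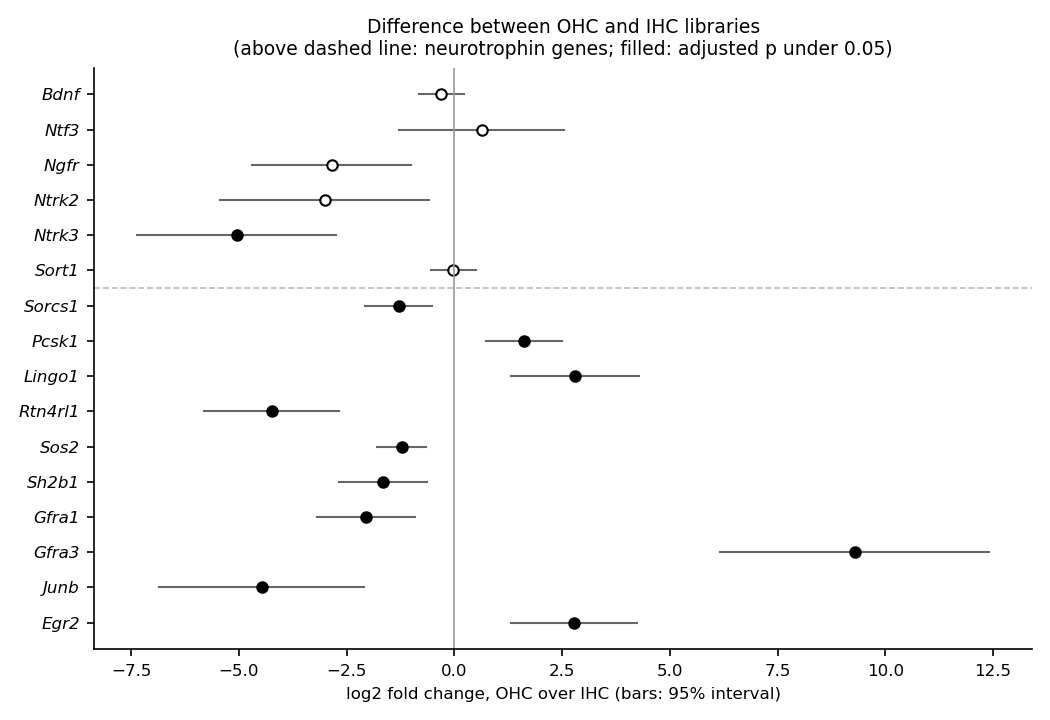
Log2 fold change of OHC over IHC (x axis) with its unadjusted 95% interval for the 6 tested neurotrophin genes (above the dashed line) and for the genes of the 7 pathway lists that passed (below it); filled circles have an adjusted p under 0.05. Ntrk3 is the only filled circle of the 6, and the fitted value of Gfra3, which had 0 counts in all IHC libraries, depends on the prior count and is no bound.

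For each tested gene, the 3 genes whose log2 CPM deviated most similarly from the cell type mean over the 12 libraries are named as a description. With 12 points and 13269 genes, high values are found for any gene, and no test is attached. Bdnf was followed by Gm26797, a pseudogene of Rps19 (Rps19-ps6) and Selenow at Pearson correlations of 0.96, 0.95 and 0.94. For Ntf3 they were 4933416I08Rik, Stat6 and Erbb2 at 0.91, 0.89 and 0.88, and for Ngfr the pseudogene Gm13394, Rgs2 and Yap1 at 0.93, 0.89 and 0.89. For Ntrk2 they were Eps8l1, Erich2 and Mrps12 at 0.89, 0.87 and 0.84, and for Ntrk3 they were Arl5b, Gsto1 and Gfra1 at 0.91, 0.89 and 0.88. For Sort1 they were Alkbh1, Phf21a and Depp1 at 0.89, 0.87 and 0.86. Gfra1 was thus close to Ntrk3 within the cell types, and both were IHC-enriched.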

How the data were processed

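Libraries were made from RNA of sorted cells after removal of ribosomal RNA, amplified from random primers and sequenced as 100-base paired reads. The values deposited by the authors are raw counts per gene, 1 file per library, which by the study's methods and the submitters' processing notes came from Trimmomatic, STAR in 2 passes against GRCm39 and HTSeq in intersection-nonempty mode; tool versions are not given in the sources used here, and the strand setting is covered only by the statement that defaults applied where no other setting was named. The 5 HTSeq summary lines were left out of library sizes and tests. Amplified reads without molecular identifiers are not independent molecules.

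Genes kept by filterByExpr (minimum count 10, minimum total 15) were normalized by TMM and compared with the edgeR 4.0.16 quasi-likelihood test in R 4.3.3, with Benjamini-Hochberg adjustment over 13269 genes and a threshold of 0.05. The code was tested on simulated counts. Of 200 genes given a 4-fold change, the test recovered 40.5%, with 5 false calls, so a gene that did not pass may still differ. Intervals use the fit's t quantiles and are not adjusted. CPM are TMM-normalized. Ratios used counts plus 0.5 per kb of exon, from GENCODE vM39 on GRCm39, which held 98.8% of the identifiers. Sequences came from the canonical transcripts of that annotation. DESeq2 1.42.0, edgeR's exact test, RLE factors, other filters, a replicate block and each library left out were the alternatives. Pools were biological replicates by the study's account, and p-values measure the spread between these pools.

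The genes and lists were chosen with earlier results of these data known. Named were the 7 genes, in each pathway list up to 4 genes past the threshold by smallest adjusted p, and the 3 most similar genes of each tested gene; genes of cell marker lists, and those named at 0 or for the limits of a result, were added after their values were seen. Some items that this rule also names are not reported here.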

Additional observations from a re-analysis of the deposited data

Results flagged for a closer look

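In 7 of 37 groups of 6 libraries, 1 library lay far from the others by Dixon's test at the 95% level. For normally distributed values chance flags about 1 group in 20. The test was run on CPM without a log, so that rate need not hold here, and all flagged values were the highest of their group. Of these, 4 concern the neurotrophin genes. Bdnf stood at 263 CPM in IHC replicate 1, the library with the highest share of ribosomal RNA. Ntf3 stood at 10.995 CPM in IHC replicate 5. Ntrk2 stood at 5.73 CPM in OHC replicate 3, and Ntrk3 at 16.4 CPM in IHC replicate 3. The others were Sorcs1 in OHC replicate 4, at 18.1 CPM, and Junb in IHC replicate 1, at 158 CPM, and in OHC replicate 3, at 4.72 CPM.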

How the results depend on the processing

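The number of the 7 genes that passed was 1 (Ntrk3) with the quasi-likelihood test on all libraries and moved to 3 with DESeq2 (Ngfr, Ntrk2 and Ntrk3), to 2 with edgeR's exact test and to 2 without the low-count filter (Ngfr and Ntrk3 in both), and to 2 without the 3 libraries that stood apart (Ntrk2 and Ntrk3, a setting chosen after seeing the data). With each library left out it was 1 to 2. Over all genes, 830 passed with that test, 2929 with DESeq2, 1270 with the exact test and 1811 without the filter, and 599 to 950 with each library left out. The fold changes of Bdnf, Ntf3 and Sort1, none of them called, crossed 0 in some fits: Bdnf ran from -0.39 to 0.0025 (without IHC replicate 1), Ntf3 from -0.047 (without OHC replicate 3) to 1.62, and -0.26 without the 3 libraries, and Sort1 from -0.14 to 0.082, with 0.055, 0.0060, 0.066 and 0.082 without IHC replicates 3 and 4 and OHC replicates 5 and 6, and -0.27 without the 3 libraries. With each library left out, the difference in log2 ratio ran from 0.54 to 1.58 for Ntf3 to Bdnf, from -0.49 to 0.87 for Ntrk3 to Ntrk2, which crossed 0 without IHC replicate 2 and at -0.0041 and -0.32 without OHC replicates 1 and 5, and from -3.58 to -2.38 for Ngfr to Sort1, which passed without IHC replicate 2 (adjusted p = 0.0455, exact permutation test). The cause was not tested. By Spearman in place of Pearson, 6 of the 18 most similar genes were named again.

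IHC and OHC libraries share replicate numbers, but same-numbered libraries did not deviate together (correlations of -0.031 to 0.018), and of the 12 libraries 1 correlated best with its own number. With a replicate block 903 genes passed, and 3 of the 7 genes, with Ntrk3 at -4.90, Ngfr at -3.15 and Ntrk2 at -5.23 (adjusted p = 0.0140, 0.00519 and 0.0217, edgeR quasi-likelihood test). Over the 6 same-number pairs, the ratio of Ngfr to Sort1 was lower in the OHC library in 6 of 6, with p = 0.03125, the smallest that an exact sign-flip permutation test over 6 pairs can give, and 0.0938 after adjustment over the 3 ratios; the other ratios had p = 0.281 and 0.844. Depth limits Ntf5 and the OHC levels of Ntrk3, which rest on 17 counts or fewer per library.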
